A study of Mus musculus with 816 samples.

Results

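Rapamycin was added together with a low dose of lipopolysaccharide (LPS) to cultured mouse microglia, and the comparison asked which genes it moved in cells that were responding to LPS. The 14 cultures compared, of 816 samples in the series, were chosen by treatment label and time alone: 7 labelled LPS_lo + rapamycin and 7 labelled LPS_lo, all harvested at 24 h. Both groups received LPS at 0.00001 ug/ul, and the labels of the combination give that LPS dose only, so its rapamycin dose is not given in the sources used here. The cells were primary neonatal microglia bought from a commercial supplier and plated in 96-well plates, and nothing in the labels ties single cultures to separate animals. The p-values below therefore measure the spread between wells. The baseline was 40 cultures labelled None (0 ug/ul), and the other groups used were 11 cultures with rapamycin alone (5 nM) and 8 cultures with the same LPS dose plus resveratrol, all at 24 h.

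LPS is a cell wall component of Gram-negative bacteria that binds TLR4 and switches on NF-kB, the interferon regulatory factors and, through secreted interferon, a large antiviral programme. Rapamycin binds FKBP12 and inhibits mTORC1, the kinase complex that couples amino acids and growth factors to protein synthesis, ribosome production, lipid synthesis and the suppression of autophagy. Among the outputs of mTORC1 is the transcription factor ATF4, which drives amino acid synthesis, amino acid import and tRNA charging, and which is also translated when the integrated stress response is on. Another is the translation of mRNAs with a terminal oligopyrimidine (TOP) tract, which encode ribosomal proteins and translation factors; the level of those mRNAs is a separate quantity from their translation.

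Expression was measured by sequencing the 3′ ends of transcripts and is given as read counts scaled to the mapped reads of the library (CPM). Both LPS groups lay on the same 2 plates, each with its own lot of cells. The first plate held LPS_lo replicates 1 to 3 and LPS_lo + rapamycin replicates 1 to 3, and the second held replicates 4 to 7 of each, so that plate and lot cannot be told apart. These plates also held 10 and 8 of the None cultures and 2 and 4 of those with rapamycin alone. The rest lay on other plates, some with another lot of cells. None means, SDs and medians below are over all 40 cultures without adjustment for plate. Depth ran from 2.12 to 18.9 M mapped reads in the LPS_lo cultures and from 2.41 to 17.3 M in the LPS_lo + rapamycin cultures. All 14 microglia and macrophage markers were detected, with a summed level of 26751 to 36516 CPM in LPS_lo and 27605 to 39104 CPM in LPS_lo + rapamycin, with 1 of the 14 called higher and 1 lower. Markers of other cell types were low. Of the lists for the oligodendrocyte lineage, endothelial cells and pericytes, fibroblasts, dendritic cells and monocytes, astrocytes and neurons, 5 of 12, 5 of 10, 4 of 8, 4 of 10, 3 of 12 and 2 of 10 genes passed the filter on low values, and none of these genes was called. In the same order the summed levels were 48.3 to 160 CPM, 33.04 to 66.2 CPM, 5.08 to 129 CPM, 8.29 to 37.8 CPM, 4.95 to 22.8 CPM and 0 to 11.2 CPM in LPS_lo. They were 68.9 to 136 CPM, 38.5 to 109 CPM, 3.35 to 185 CPM, 12.4 to 45.3 CPM, 5.15 to 21.5 CPM and 0 to 9.13 CPM in LPS_lo + rapamycin. No gene of the lists for T, B and NK cells or for neutrophils and mast cells passed the filter, and their summed levels were at most 7.70 CPM in both groups. Summed mitochondrial transcripts were 9087 to 12566 CPM in LPS_lo and 9731 to 26918 CPM in LPS_lo + rapamycin, the highest being replicates 3 and 5 of the latter (26918 and 26330 CPM). LPS_lo replicate 4, the deepest library of that group and its only edge well, was the highest in several stress genes and the lowest in Ccl2 and Ccl7, as given below. LPS_lo + rapamycin replicate 1, the only edge well of its own group, was the highest of that group in Atf4 and Asns.

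Of 11345 genes tested, 294 (2.59%) differed between LPS_lo + rapamycin and LPS_lo at an adjusted p under 0.05, 118 higher (1.04%) and 176 lower (1.55%) with rapamycin. The test was limma on log2(CPM + 1) with plate as a covariate, fitted over 73 cultures, with Benjamini-Hochberg adjustment. Every log2 difference below is on that scale, is given ± its standard error, and understates the change of genes with few counts. LPS itself had moved 3872 genes (34.1%) against None in the same fit, 1255 higher (11.1%) and 2617 lower (23.1%). Of the 294 genes, 292 had the same sign on both plates. They were called from a fit over these same plates, so the shared sign follows largely from the call and is not a replication. In 40 of the 294 the 7 and 7 cultures did not overlap, against 59 of all 11345 genes (0.52%). The call used the same cultures, so the larger share among called genes also follows largely from the call. Over all genes the median log2 difference was -0.10; it was 0.03 after the medians of the cultures were made equal, where 208 genes were higher and 101 lower, or 67.3% higher against 40.1%. Without plate in the model 65 genes passed (30 higher and 35 lower), and without the 2 cultures highest in mitochondrial transcripts 164 passed (75 and 89).

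Atf4 and genes of amino acid supply were among those lower with rapamycin. Of 35 genes tested from the amino acid and ATF4 list, 10 fell and none rose, all 35 had a negative difference, and the list median was -0.88. Over all 11345 genes 1.55% fell, 6625 had a negative difference and the median was -0.10. LPS alone had raised 16 of the 35 and lowered 3, with a median of 0.49 against None. Both comparisons use the same LPS_lo cultures, so the values are given side by side only. Without LPS_lo replicate 4 the number that fell was 4, and between leave-one-out fits it ran up to 14. It was 4 without plate in the model and 6 without the 2 cultures highest in mitochondrial transcripts.

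Atf4 read 149 CPM in the lowest LPS_lo culture, 300 in the median and 462 in the highest, and 89.0, 91.9 and 200 CPM in LPS_lo + rapamycin. Of the rapamycin cultures, 6 lay below every LPS_lo culture and replicate 1, the edge well, lay between. The log2 difference was -1.41 ± 0.25 (adjusted p = 0.000144), and the None cultures averaged 148 ± 60.7 CPM (SD, n = 40). Psat1, which encodes an enzyme of serine synthesis, ran from 21.4 to 84.9 CPM (median 33.9) in LPS_lo and from 7.75 to 22.9 CPM (median 13.4) with rapamycin. On each plate its groups were fully apart, and it fell by 1.52 ± 0.24 (adjusted p = 2.86e-05). Phgdh, the enzyme of the first step of the same pathway, was at 0 to 22.4 CPM (median 9.03) in LPS_lo and at 0.174 to 4.94 CPM (median 0.838) with rapamycin, a log2 difference of -1.91 ± 0.51 (adjusted p = 0.0219).

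Asns, the asparagine synthetase, was at 13.7 to 121 CPM (median 25.5) in LPS_lo and at 5.21 to 30.3 CPM (median 7.26) in LPS_lo + rapamycin, and it fell by 1.75 ± 0.45 (adjusted p = 0.0174). Trib3, a pseudokinase induced by ATF4, was at 7.55 to 43.0 CPM (median 21.2) against 0.181 to 11 CPM (median 3.59), a difference of -2.47 ± 0.53 (adjusted p = 0.00278). Chac1, a glutathione-degrading enzyme, was at 3.53 to 239 CPM (median 102) against 1.25 to 38.5 CPM (median 7.12), a difference of -2.44 ± 0.68 (adjusted p = 0.0323). For all 3 genes the ranges of the groups overlapped, and in each of the 6 genes from Atf4 to Chac1 the highest LPS_lo culture was replicate 4. Without it Asns, Chac1 and Phgdh no longer passed (adjusted p = 0.0829, 0.0969 and 0.0818), and their calls ended in 1, 8 and 5 of the 14 leave-one-out fits, while Atf4, Psat1 and Trib3 kept their calls in every leave-one-out fit.

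The other genes of the list that fell encode aminoacyl-tRNA synthetases, the enzymes that load amino acids on tRNAs. Nars, for asparagine, was at 100 to 389 CPM (median 233) in LPS_lo and at 91.4 to 152 CPM (median 117) with rapamycin, a difference of -0.83 ± 0.18 (adjusted p = 0.00226). Yars, Lars and Gars, for tyrosine, leucine and glycine, fell by 1.14 ± 0.31, 0.99 ± 0.27 and 0.96 ± 0.26 (adjusted p = 0.0266, 0.0262 and 0.0266); these 3 were named after their values were seen. Slc7a11, the cystine importer, had differences of 0.87 on the first plate and -3 on the second, and its pooled difference did not pass (-1.34 ± 0.50, adjusted p = 0.146).

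Of the 10 genes of the list that fell, 8 had a matched promoter. Those of Asns, Chac1 and Gars are shown because they are the 3 of these 8 that hold a C/EBP-ATF response element in the 250 bases before the RefSeq start. The element was searched as TGATGNAA on both strands, and capitals mark the match. The sequences are from RefSeq (GRCm38.p6), 5′ to 3′ on the strand of the gene. The element was found in 1056 of 27025 gene promoters of this length (3.91%) and in 10 of 33 promoters of the list (30.3%), members that did not pass included. The list was drawn up from known ATF4 targets, so this share describes the list and not the rapamycin difference.

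Asns, chr6:7693210-7693459, minus strand: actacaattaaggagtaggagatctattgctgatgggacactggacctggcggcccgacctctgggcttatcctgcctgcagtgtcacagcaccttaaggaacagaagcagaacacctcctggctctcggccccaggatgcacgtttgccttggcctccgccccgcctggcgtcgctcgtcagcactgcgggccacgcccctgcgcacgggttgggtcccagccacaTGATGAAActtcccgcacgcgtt
Chac1, chr2:119350992-119351241, plus strand: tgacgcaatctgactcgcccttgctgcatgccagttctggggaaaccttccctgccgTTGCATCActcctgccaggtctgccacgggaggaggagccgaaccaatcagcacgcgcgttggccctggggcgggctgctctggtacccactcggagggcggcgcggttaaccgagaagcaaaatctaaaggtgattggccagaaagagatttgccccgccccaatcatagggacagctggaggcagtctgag
Gars, chr6:55037751-55038000, plus strand: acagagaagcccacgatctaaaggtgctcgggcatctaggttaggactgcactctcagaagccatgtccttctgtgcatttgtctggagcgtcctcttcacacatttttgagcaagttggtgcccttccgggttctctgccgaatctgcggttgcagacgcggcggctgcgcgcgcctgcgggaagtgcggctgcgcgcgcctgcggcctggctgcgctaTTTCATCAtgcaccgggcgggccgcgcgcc

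In Asns the element lay on the strand of the gene and started 23 bases before the RefSeq start, whereas in Chac1 and Gars it lay on the opposite strand, starting 193 and 30 bases before it.

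The median over the 35 genes was -0.32 on the first plate and -1.24 on the second, and for Chac1 the difference was -0.16 on the first plate and -4.15 on the second. On the first plate Chac1 read 3.53 to 15 CPM in the LPS_lo cultures, and on the second 102 to 239 CPM. A test of whether the difference itself differed between the plates passed for 7 of the 11345 genes (0.0617%), among them Slc7a11 (-3.87, second plate minus first, adjusted p = 0.031), and not for Asns (-2.32, adjusted p = 0.391). The same test of the LPS difference against None passed for 481 genes (4.24%).

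**Figure D1:**
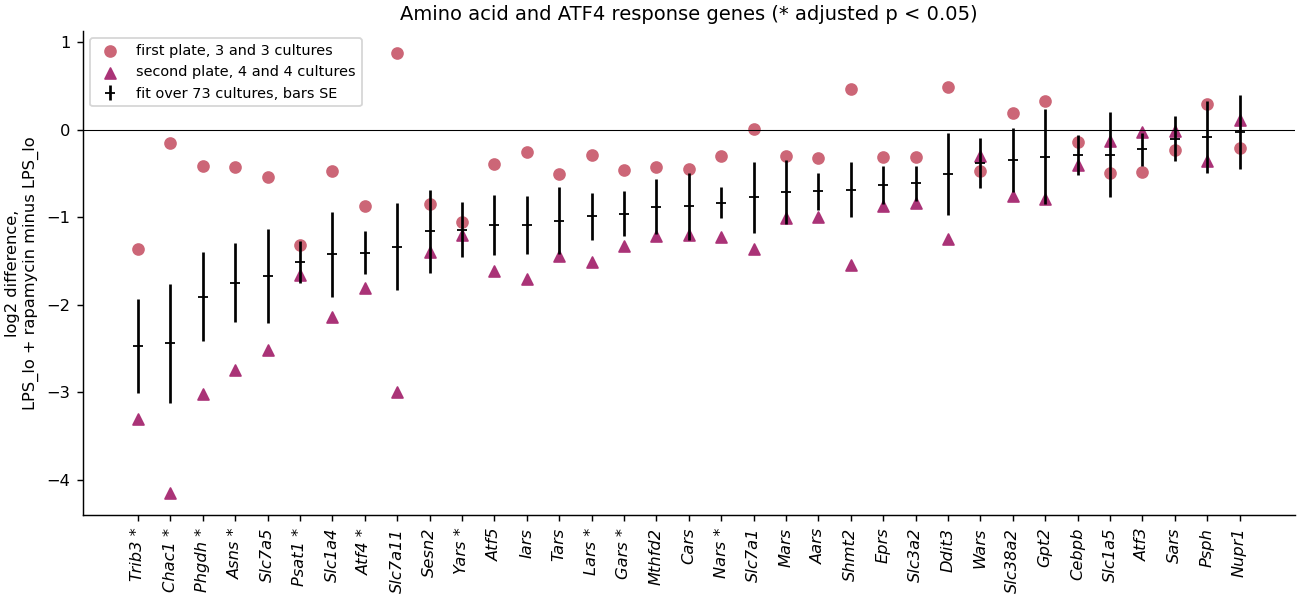
Log2 difference between LPS_lo + rapamycin and LPS_lo for the 35 tested genes of the amino acid and ATF4 list, on the first plate (circles, 3 and 3 cultures), on the second plate (triangles, 4 and 4 cultures) and in the fit over 73 cultures (ticks, bars are the standard error). All 35 fitted values are below 0 and 10 passed (stars); for most genes, Chac1 and Phgdh among them, the second plate lies lower than the first.

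Ribosomal protein mRNAs were among those that rose. Of 75 cytosolic ribosomal protein genes tested, 20 rose with rapamycin and none fell, 73 had a positive difference, and the list median was 0.62. Over all 11345 genes 1.04% rose and 4714 had a positive difference. LPS alone had lowered 60 of the 75 and raised none, with a median of -0.74 against None. In leave-one-out fits 14 to 26 passed, the fewest without LPS_lo + rapamycin replicate 3; 11 passed without both cultures highest in mitochondrial transcripts, 5 without plate in the model and 31 with the medians of the cultures made equal. Ribosomal protein genes have many near-identical processed copies, between which reads can be split, so the values of single members are uncertain in that respect.

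Rps25, a protein of the small subunit, was at 82.7 to 214 CPM (median 197) in LPS_lo and at 226 to 482 CPM (median 281) in LPS_lo + rapamycin, against 334 ± 72.7 CPM (SD, n = 40) in None. The groups did not overlap, and the log2 difference was 0.98 ± 0.17 (adjusted p = 0.000144). Rps7, of the same subunit, was at 39.3 to 96.9 CPM (median 77.5) against 109 to 273 CPM (median 182), also without overlap, and rose by 1.42 ± 0.26 (adjusted p = 0.000211). Rps9 rose by 1.08 ± 0.24 (adjusted p = 0.00358), again without overlap. Rps9 was among the members that LPS alone had not moved past the threshold (-0.09 ± 0.20, adjusted p = 0.769), and its median with rapamycin was 571 CPM, beside a None mean of 286 ± 94.8 CPM (SD, n = 40). Rpl28 and Rpl36a of the large subunit rose by 0.98 ± 0.20 and 1.01 ± 0.18 (adjusted p = 0.0016 and 0.000144).

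Translation factors with TOP mRNAs shared the direction: 4 of 17 rose (1.04% over all genes), none fell, and the median was 0.28. These were Eef1a1, which delivers charged tRNAs to the ribosome (0.64 ± 0.12, adjusted p = 0.000649), Eef2, the translocation factor (0.67 ± 0.15, adjusted p = 0.00447), Eef1b2, an exchange factor of Eef1a1 (0.72 ± 0.17, adjusted p = 0.00829), and Gnb2l1, the ribosomal scaffold RACK1 (0.71 ± 0.16, adjusted p = 0.00574). All 4 kept their calls in every leave-one-out fit and none passed without plate in the model.

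Genes that build ribosomes in the nucleolus did not rise. Of 33 ribosome biogenesis genes, 2 fell, none rose, 26 had a negative difference and the median was -0.46. Among all 11345 genes 1.55% fell and 6625 had a negative difference. Nop2, an rRNA methyltransferase, was at 31.8 to 63.3 CPM (median 41.3) in LPS_lo and at 7.27 to 23.6 CPM (median 18.3) with rapamycin, with no overlap and a difference of -1.31 ± 0.28 (adjusted p = 0.00226). Ltv1, an assembly factor of the small subunit, was at 7.77 to 22.4 CPM against 4.15 to 7.23 CPM, also without overlap (-1.08 ± 0.29, adjusted p = 0.0242); its call ended in 3 of the 14 leave-one-out fits (adjusted p up to 0.0668).

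Some chaperone genes fell with rapamycin. Of 29 heat shock and endoplasmic reticulum chaperone genes 6 fell, none rose, 25 had a negative difference and the median was -0.46. The shares over all genes were 1.55% lower and 6625 of 11345 negative. Hspa5 (BiP), the main chaperone of the endoplasmic reticulum, was at 186 to 499 CPM (median 379) in LPS_lo and at 124 to 231 CPM (median 144) with rapamycin. On each plate all rapamycin cultures lay below all LPS_lo cultures, and the difference was -1.01 ± 0.20 (adjusted p = 0.00101). The cytosolic Hsp90aa1 was at 115 to 246 CPM (median 205) against 78.1 to 136 CPM (median 91.0), a difference of -1.03 ± 0.19 (adjusted p = 0.000252). Sdf2l1, a partner of BiP, fell by 1.42 ± 0.36 (adjusted p = 0.0137). Dnaja1, Pdia3 and Hspd1 fell by 0.92 ± 0.26, 0.97 ± 0.27 and 0.80 ± 0.22 (adjusted p = 0.0363, 0.0287 and 0.0338), and each of these 3 calls ended when single cultures were left out (adjusted p up to 0.0782, 0.0823 and 0.095). The count was 3 with the medians of the cultures made equal or without LPS_lo replicate 4, and 0 without plate in the model.

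Hmox1, the haem oxygenase that releases iron and is a target of NRF2, had the lowest p-value of all genes. It was at 1020 to 2054 CPM (median 1399) in the 7 LPS_lo cultures and at 197 to 461 CPM (median 353) in the 7 LPS_lo + rapamycin cultures, so that the groups were far apart on both plates. The log2 difference was -2.23 ± 0.21 (adjusted p = 3.94e-12). LPS alone had raised it by 1.14 ± 0.18 over None (adjusted p = 1.39e-07), whose median was 493 CPM, and the rapamycin cultures lay below that median. Of 21 genes of the iron and NRF2 list 2 fell, Hmox1 included, and none rose, and the list median was -0.19, at 0.19 on the first plate and -0.67 on the second. The other was Gclm, a subunit of the enzyme for glutathione synthesis, at 391 to 1268 CPM (median 497) against 159 to 338 CPM (median 202), with no overlap. Its difference was -1.34 ± 0.39 (adjusted p = 0.0459), a call that ended in 11 of the 14 leave-one-out fits, with the highest adjusted p (0.134) without LPS_lo replicate 4, the culture at 1268 CPM.

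**Figure D2:**
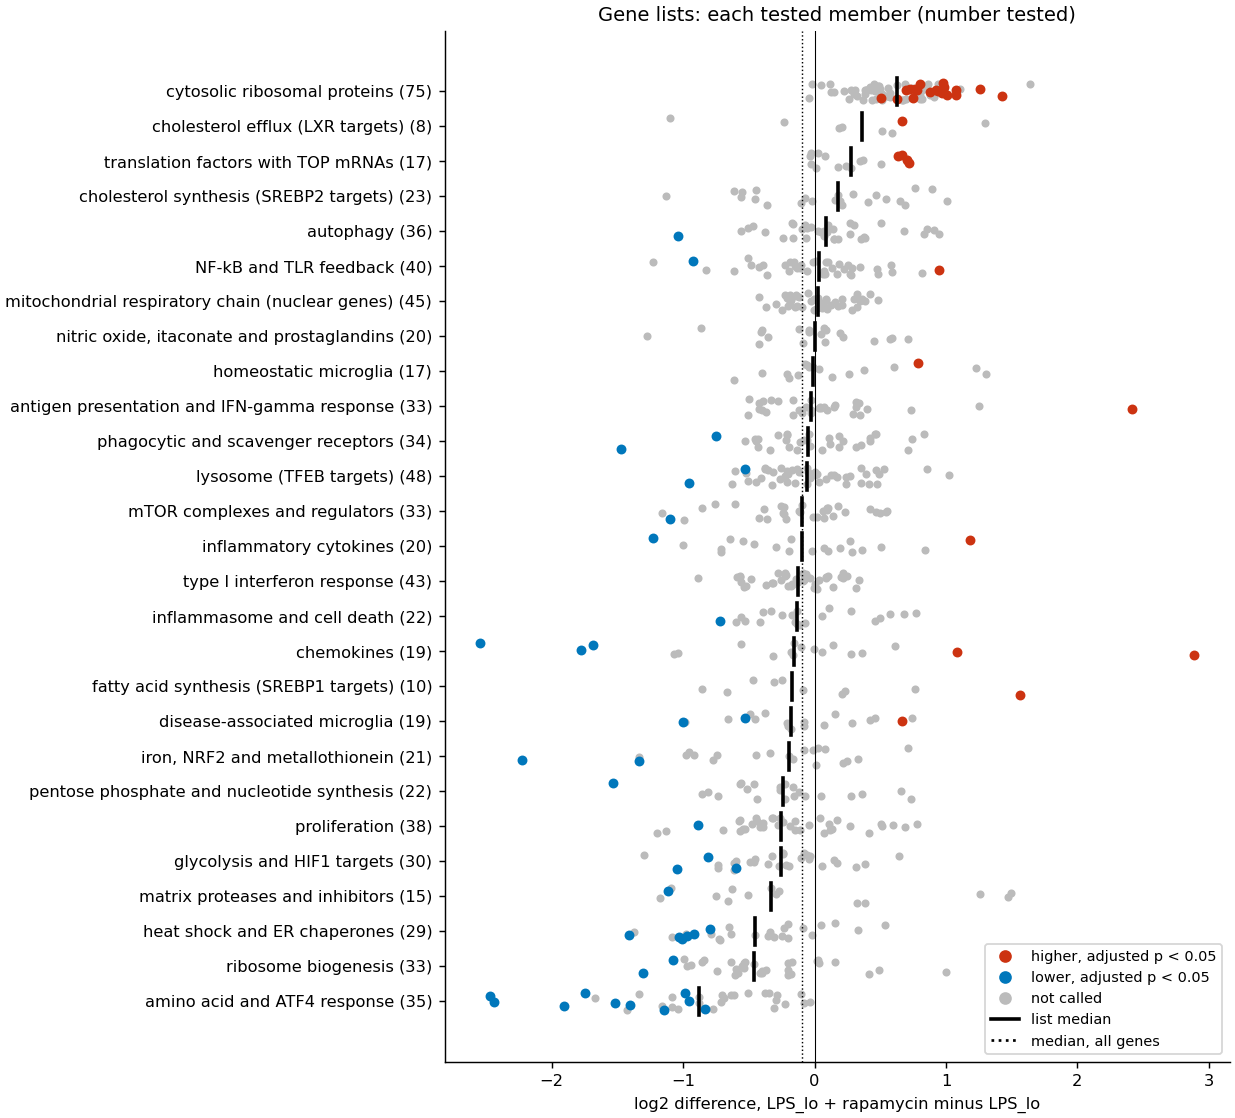
Log2 difference between LPS_lo + rapamycin and LPS_lo for every tested member of 27 gene lists, 1 dot per gene, coloured where the adjusted p is under 0.05; the black bar is the list median and the dotted line the median of all genes (-0.10). The ribosomal protein list has the highest median (0.62) and the amino acid and ATF4 list the lowest (-0.88), while the type I interferon list has no coloured dot.

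Most of the inflammatory programme did not pass in either direction. Over all 11345 genes 2.59% passed, so a low count alone does not set a list apart. All 43 tested genes of the type I interferon response had risen with LPS (median 2.93), and with rapamycin none of the 43 passed, at a median of -0.13, beside -0.10 for all genes; the list median was -0.43 on the first plate and 0.15 on the second. Ifit1, an RNA-binding antiviral protein, was at 1063 to 2978 CPM in LPS_lo and at 1479 to 2204 CPM with rapamycin (-0.18 ± 0.30, adjusted p = 0.86). Of 20 genes of nitric oxide, itaconate and prostaglandin synthesis none passed, at a median of 0.00. Irg1, which makes itaconate, was at 281 to 486 CPM against 341 to 472 CPM (-0.04 ± 0.34, adjusted p = 0.973). Of 40 NF-kB and TLR feedback genes 1 rose and 1 fell, and of 33 antigen presentation genes 1 rose. Tnf, at 461 to 1552 CPM against 516 to 1211 CPM, had a difference of -0.02 ± 0.37 (adjusted p = 0.99). A difference that missed the threshold is not shown to be absent: the 95% interval for Tnf ran from -0.76 to 0.72.

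Within this programme single chemokines moved, and in both directions. Of 19 chemokine genes 3 fell and 2 rose, beside 16 that LPS alone had raised and 1 that it had lowered. The 3 that fell, Ccl2, Ccl7 and Ccl12, encode ligands of CCR2 that draw monocytes, and they lie in 1 cluster on chromosome 11 (GRCm38, Ccl2 at 82035571 to 82037453, Ccl7 at 82045712 to 82047525 and Ccl12 at 82101845 to 82103400). Ccl7 was at 32.4 to 293 CPM (median 131) in LPS_lo and at 8.72 to 47.1 CPM (median 17.7) with rapamycin, a difference of -2.54 ± 0.45 (adjusted p = 0.000144); the lowest LPS_lo culture, replicate 4, lay within the rapamycin range and the other 6 lay above it. Ccl2 was at 92.3 to 520 CPM (median 431) against 44.1 to 209 CPM (median 160), with replicate 4 again the lowest LPS_lo culture, and fell by 1.69 ± 0.44 (adjusted p = 0.0205). Ccl12 was at 5.89 to 173 CPM (median 19.9) against 1.25 to 41.1 CPM (median 12.3), and fell by 1.78 ± 0.53 (adjusted p = 0.0484). Ccl7 passed in every leave-one-out fit, whereas Ccl2 and Ccl12 lost their calls in 5 and 8 of the 14 fits (adjusted p up to 0.083 and 0.142). The None cultures averaged 6.02 ± 4.82 CPM for Ccl7 and 13.6 ± 14.8 CPM for Ccl2 (SD, n = 40), below the rapamycin medians. For Ccl7 these pooled values hide a difference between the plates. On the first plate all LPS_lo + rapamycin cultures lay within the None range for Ccl7 (6.4 to 16.8 CPM). On the second plate they were at 17.7 to 47.1 CPM, above None at 2.6 to 7.2 CPM. For Ccl2 all LPS_lo + rapamycin cultures lay above the None cultures of their own plate.

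Ccl22 and Ccl5 rose. Ccl22, a ligand of CCR4 on T cells, was at 0.422 to 27.8 CPM (median 11.6) in LPS_lo and at 22.2 to 247 CPM (median 47.3) with rapamycin; the 2 lowest rapamycin cultures (22.2 and 25.7 CPM) lay below the highest LPS_lo culture, and the difference was 2.89 ± 0.44 (adjusted p = 1.54e-05). Ccl5, a chemokine that draws T cells and monocytes, was already at 14068 to 25830 CPM (median 15889) in LPS_lo and reached 24360 to 65765 CPM (median 36764) with rapamycin. Its groups were apart on each plate and overlapped across plates, and it rose by 1.08 ± 0.22 (adjusted p = 0.00154). Both passed in every leave-one-out fit.

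Among 20 inflammatory cytokine genes 1 fell and 1 rose. Il1rn, the secreted antagonist of the IL-1 receptor, was at 480 to 788 CPM (median 630) in LPS_lo and at 217 to 394 CPM (median 244) with rapamycin, with no overlap, a difference of -1.23 ± 0.26 (adjusted p = 0.0019). Ebi3, a subunit of IL-27 and IL-35, was at 171 to 722 CPM (median 348) against 354 to 2253 CPM (median 886); it rose by 1.18 ± 0.33 (adjusted p = 0.0321), a call that ended in 7 of the 14 leave-one-out fits (adjusted p up to 0.112). Il1b, at 206 to 638 CPM against 394 to 1154 CPM, had a difference of 0.84 ± 0.39 that did not pass (adjusted p = 0.299).

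Several receptors of the cell surface were also among the genes called. Cd14, the co-receptor that hands LPS to TLR4, was at 90.2 to 587 CPM (median 250) in LPS_lo and at 171 to 1471 CPM (median 296) with rapamycin (0.95 ± 0.27, adjusted p = 0.0349). Tlr2, the receptor of bacterial lipopeptides, was at 34 to 211 CPM (median 67.4) against 19.3 to 155 CPM (median 29.2), a fall of 0.93 ± 0.25 (adjusted p = 0.0262). Within LPS_lo both genes were higher in the cultures of the first plate, and both calls ended when single cultures were left out (adjusted p up to 0.0789 and 0.0661). C5ar1, the receptor of complement C5a, was at 49.2 to 207 CPM (median 88.7) against 13.1 to 105 CPM (median 44.4) and fell by 1.47 ± 0.26 (adjusted p = 0.000144), with the groups apart on each plate. It was 1 of 2 called among 34 phagocytic and scavenger receptors, both lower; the other was Cd68, a glycoprotein of phagocyte lysosomes, at 693 to 1468 CPM against 442 to 925 CPM (-0.75 ± 0.17, adjusted p = 0.00576). Csf1r, the growth factor receptor that microglia need to survive, was the 1 of 17 homeostatic microglia genes that passed (0.79 ± 0.21, adjusted p = 0.0204, at 568 to 2217 CPM against 940 to 4028 CPM), a call that ended in 5 of the 14 leave-one-out fits (adjusted p up to 0.0943); LPS alone had lowered 14 of the 17.

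**Figure D3:**
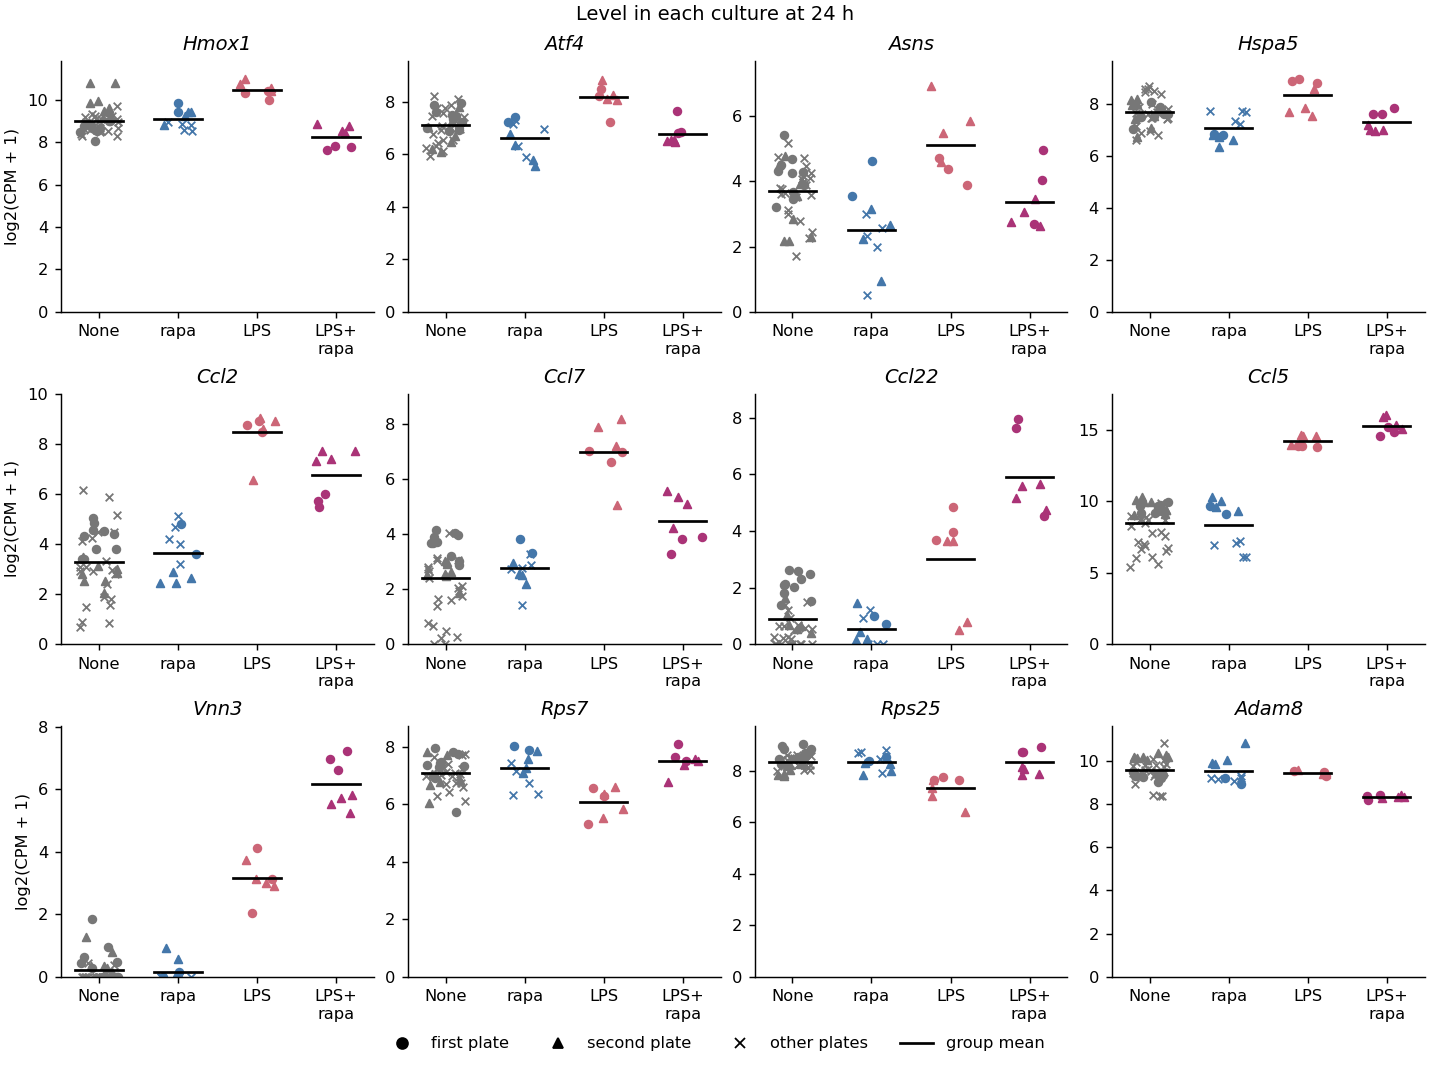
Level of 12 genes, as log2(CPM + 1), in every None, rapamycin, LPS_lo and LPS_lo + rapamycin culture at 24 h; circles are the first plate, triangles the second, crosses other plates, and the line is the group mean. Hmox1 and Adam8 with rapamycin lie below all LPS_lo cultures, and Vnn3, Rps7 and Rps25 above them, whereas Ccl2, Ccl7 and Asns overlap.

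Metabolic and lysosomal lists held at most 3 called genes each, where 2.59% of all 11345 genes passed (1.04% higher and 1.55% lower). Of 23 cholesterol synthesis genes none passed, at a median of 0.18. Of 10 fatty acid synthesis genes Fasn, the fatty acid synthase, rose (1.56 ± 0.35, adjusted p = 0.00395), from 0 to 5.47 CPM in LPS_lo to 3.34 to 8.51 CPM with rapamycin, both below the None mean of 10.6 ± 5.67 CPM (SD, n = 40). Of 30 glycolysis and HIF1 genes 3 fell and none rose (median -0.26): Hif1a, which encodes the oxygen-regulated factor itself (-0.81 ± 0.21, adjusted p = 0.019), the pyruvate kinase Pkm (-0.60 ± 0.16, adjusted p = 0.0266) and Ero1l, an oxidase of the endoplasmic reticulum (-1.05 ± 0.27, adjusted p = 0.0174). Their calls ended in 3, 4 and 2 of the 14 leave-one-out fits, and none of these 3 passed without the 2 cultures highest in mitochondrial transcripts. Apoe, a carrier of cholesterol and an LXR target, rose by 0.67 ± 0.19 (adjusted p = 0.0428; up to 0.106 in leave-one-out fits).

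Of 48 lysosome genes, written as targets of the mTORC1-regulated factor TFEB, 2 fell and none rose, at a median of -0.06, beside 31 that LPS alone had lowered. These were the proton pump subunit Atp6v1h (-0.96 ± 0.26, adjusted p = 0.0275) and the transmembrane glycoprotein Gpnmb, at 1356 to 1775 CPM in LPS_lo and 732 to 1201 CPM with rapamycin (-0.53 ± 0.15, adjusted p = 0.0339). Neither kept its call in every leave-one-out fit (adjusted p up to 0.084 and 0.116). Of 36 autophagy genes 1 fell, Sqstm1 (p62), an autophagy receptor, at 949 to 7273 CPM (median 1985) against 686 to 1358 CPM (median 946). Its difference of -1.04 ± 0.26 (adjusted p = 0.0137) did not pass without LPS_lo replicate 4 (adjusted p = 0.0858), which held the 7273 CPM. Of 33 genes of mTOR complexes and their regulators 1 fell: Rraga, a GTPase that signals amino acids to mTORC1 (-1.1 ± 0.28, adjusted p = 0.0136; 0.0763 without LPS_lo + rapamycin replicate 5). None of 45 nuclear genes of the respiratory chain passed (median 0.03), and of 38 proliferation genes 1 fell, Pcna, the sliding clamp of DNA polymerase (-0.89 ± 0.21, adjusted p = 0.00795).

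Adam8, a membrane metalloprotease of myeloid cells, had little spread within either group. It was at 631 to 767 CPM (median 681) in LPS_lo and at 293 to 343 CPM (median 320) with rapamycin, and it fell by 1.12 ± 0.19 (adjusted p = 0.000144). LPS alone had not moved it past the threshold (-0.38 ± 0.16, adjusted p = 0.0608), a value pooled over plates that were unlike. On the first plate None was at 525 to 702 CPM and LPS_lo at 631 to 746 CPM. On the second plate None was at 1058 to 1314 CPM and LPS_lo at 663 to 767 CPM, without overlap. Spp1 (osteopontin), a secreted matrix protein of the disease-associated microglia list, was at 179 to 386 CPM (median 344) against 93.6 to 192 CPM (median 175) and fell by 1.00 ± 0.22 (adjusted p = 0.0046). Of the 19 genes of that list Spp1 and Gpnmb fell and Apoe rose.

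The largest rises were chosen by a fixed rule, as the 15 genes with the largest difference among 103 that were called, had a mean of at least 10 CPM in the higher group and had the same sign on both plates. Vnn3, a pantetheinase that releases cysteamine, led them. It was at 3.14 to 16.5 CPM (median 7.74) in LPS_lo and at 36.7 to 147 CPM (median 55.8) with rapamycin, with no overlap on either plate, and rose by 3.01 ± 0.31 (adjusted p = 3.06e-11). It was at a median of 0 CPM in None, and LPS alone had raised it by 2.74 ± 0.25 (adjusted p = 3.4e-15). Sprr2d, a cornified envelope protein, showed the same order within plates at very different levels: 0 to 0.943 CPM against 7.06 to 21.9 CPM on the first plate, and 104 to 146 CPM against 232 to 553 CPM on the second. Its difference was 2.32 ± 0.50 (adjusted p = 0.00285).

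Other rises were of genes that LPS had lowered, with differences against None of -2.79 for Cd83, -1.97 for Plxdc2 and -1.63 for Bckdha. Cd83, a surface protein of activated antigen-presenting cells, was at 0 to 12.7 CPM (median 4.71) in LPS_lo and at 7.40 to 36.1 CPM (median 15.6) with rapamycin, against 29.2 ± 11.8 CPM (SD, n = 40) in None, and rose by 1.95 ± 0.41 (adjusted p = 0.00233). Plxdc2, a plexin-domain membrane protein, was at 7.42 to 24.7 CPM against 33 to 78.5 CPM, with no overlap, and rose by 1.73 ± 0.37 (adjusted p = 0.0024). Bckdha, a subunit of the dehydrogenase that breaks down branched-chain amino acids, was at 0 to 6.6 CPM against 7.82 to 24.1 CPM, also without overlap, and rose by 1.74 ± 0.41 (adjusted p = 0.00762). H2-Aa, the alpha chain of an MHC class II molecule and the 1 antigen presentation gene that rose, had not been moved past the threshold by LPS. It was listed at 0 in 5 of the 7 LPS_lo cultures and was at 1.08 to 21.1 CPM in all 7 with rapamycin (2.42 ± 0.50, adjusted p = 0.0019).

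Besides Ccl22, the remaining rises were of AL670236.1, Gm4524, RP24-500I24.6, H1fx, Naaa, Pmel, Rasgrp1, Tchp and Peli2. AL670236.1, a gene model without a gene name, was at 0.274 to 1.4 CPM in LPS_lo and at 1.91 to 47.3 CPM with rapamycin, against 52.3 ± 39.5 CPM (SD, n = 40) in None (2.51 ± 0.47, adjusted p = 0.00051). It and Gm4524 kept their calls in every leave-one-out fit, and the other 7 of these genes lost theirs in at least 1 fit (adjusted p up to 0.134 for Naaa).

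Among the 15 largest falls, of 161 that met the same rule, were 3 chemokines, 4 genes of the ATF4 list and Hmox1, given above. Psmc3ip, a cofactor of meiotic recombination, was at 30.3 to 70.7 CPM (median 55.5) in LPS_lo and at 0 to 59.3 CPM (median 15.9) with rapamycin, a wide spread, and fell by 2.53 ± 0.58 (adjusted p = 0.0054). Prmt3, an arginine methyltransferase of a ribosomal protein, was at 25 to 64.8 CPM (median 35.6) against 1.95 to 29 CPM (median 14.4) and fell by 1.84 ± 0.36 (adjusted p = 0.000979). Ndufaf4, an assembly factor of respiratory complex I, fell by 1.85 ± 0.42 (adjusted p = 0.00497), and Myef2 fell by 2.05 ± 0.51 (adjusted p = 0.0137). Cpne8, Gm37033 and Ddx51 completed the falls, and their calls ended when single cultures were left out (adjusted p up to 0.0573, 0.102 and 0.081).

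Rapamycin alone, at 5 nM and against None, moved 66 of 11345 genes (0.582%), 13 higher (0.115%) and 53 lower (0.467%). This comparison shares no culture with the one in LPS, although both use the same plate terms, and the rapamycin doses may differ. Of the 294 genes called in LPS, 235 (79.9%) had the same sign in rapamycin alone, beside 6473 of all 11345 (57.1%). The correlation across genes was 0.55 over the 294 and 0.18 over all genes, where genes are not independent replicates. The 17 genes called in both all had the same sign. Lower in both were Atf4 (-0.72 ± 0.17 without LPS, adjusted p = 0.0192), Psat1, Phgdh and Chac1 of the ATF4 list, the chaperones Hspa5, Hsp90aa1, Sdf2l1 and Pdia3, and Pcna, Spp1 and Gpnmb. Higher in both was Crebrf, a regulator of the unfolded protein response factor CREB3, at 12.6 to 30.5 CPM (median 19.8) in LPS_lo and at 29.1 to 73.1 CPM (median 48.1) with rapamycin (1.35 ± 0.27, adjusted p = 0.00101), and 1.1 ± 0.18 without LPS (adjusted p = 7.58e-05).

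By list, rapamycin alone lowered 7 of the 35 ATF4 genes (median -0.46, 32 negative) and 7 of the 29 chaperones (median -0.40), and raised none of either. In this comparison 0.467% of all genes fell and 6126 of 11345 had a negative difference. None of the 75 ribosomal protein genes passed with rapamycin alone, at a median of 0.24. The cholesterol synthesis list differed in sign of its median, at -0.38 without LPS, where 22 of 23 genes were negative, and 0.18 with LPS; 1 gene passed without LPS and none with it, and no test of that difference was run on the list.

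Whether rapamycin did more, or less, in LPS than without it was tested gene by gene as the difference of the 2 differences. It passed for 19 genes (0.167%), 9 where the difference was more positive in LPS (0.0793%) and 10 where it was more negative (0.0881%). Vnn3 (3.10 ± 0.37, adjusted p = 3.04e-08) and Ccl22 (3.19 ± 0.53, adjusted p = 0.000174) were the largest positive ones; both were close to 0 CPM without LPS. Rapamycin alone had a log2 difference of -0.10 ± 0.21 for Vnn3 and -0.30 ± 0.30 for Ccl22. Cdk19, a kinase of the Mediator complex, and Vps13c, a lipid transfer protein, had been lowered by LPS (-1.23 ± 0.21 and -3.34 ± 0.31), did not overlap between LPS_lo and LPS_lo + rapamycin (10.9 to 31.1 against 41.6 to 96.1 CPM for Cdk19), and had interaction values of 1.77 ± 0.30 and 2.15 ± 0.46 (adjusted p = 0.000268 and 0.0188). The fifth was Gm8730 (1.38 ± 0.32, adjusted p = 0.0394), for which the split of reads between near-identical gene copies was not examined.

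On the negative side stood Hmox1 (-2.03 ± 0.26, adjusted p = 1.23e-07), Ccl7 (-2.45 ± 0.54, adjusted p = 0.0236), C5ar1 (-1.4 ± 0.31, adjusted p = 0.0251), the splicing factor Srsf4 (-2.01 ± 0.45, adjusted p = 0.0259) and Cystm1 (-2.59 ± 0.59, adjusted p = 0.0292). For Hmox1 rapamycin alone gave -0.19 ± 0.14 (adjusted p = 0.705), a value pooled over plates that differed in direction. On the first plate the cultures with rapamycin alone were at 701 and 933 CPM and the None cultures at 265 to 522 CPM. On the second plate they were at 446 to 699 CPM, against 567 to 1818 CPM in None. Well position differed as well. Both cultures with rapamycin alone on the first plate were edge wells, and the None cultures there were middle wells except replicate 15. On the second plate the None edge wells, replicates 20 and 36, were at 1818 and 1789 CPM. The None middle wells there were at 567 to 983 CPM. A part of well position in these values was not tested. For Atf4 the interaction did not pass (-0.69 ± 0.30, adjusted p = 0.463) nor for Hspa5 (-0.17 ± 0.24, adjusted p = 0.882). Of the ribosomal protein genes above, Rps25 passed (0.94 ± 0.21, adjusted p = 0.0236) and Rps7 did not (1.15 ± 0.31, adjusted p = 0.0977). The count was 11 without LPS_lo replicate 7, 12 without LPS_lo + rapamycin replicate 3 and 3 without plate in the model.

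**Figure D4:**
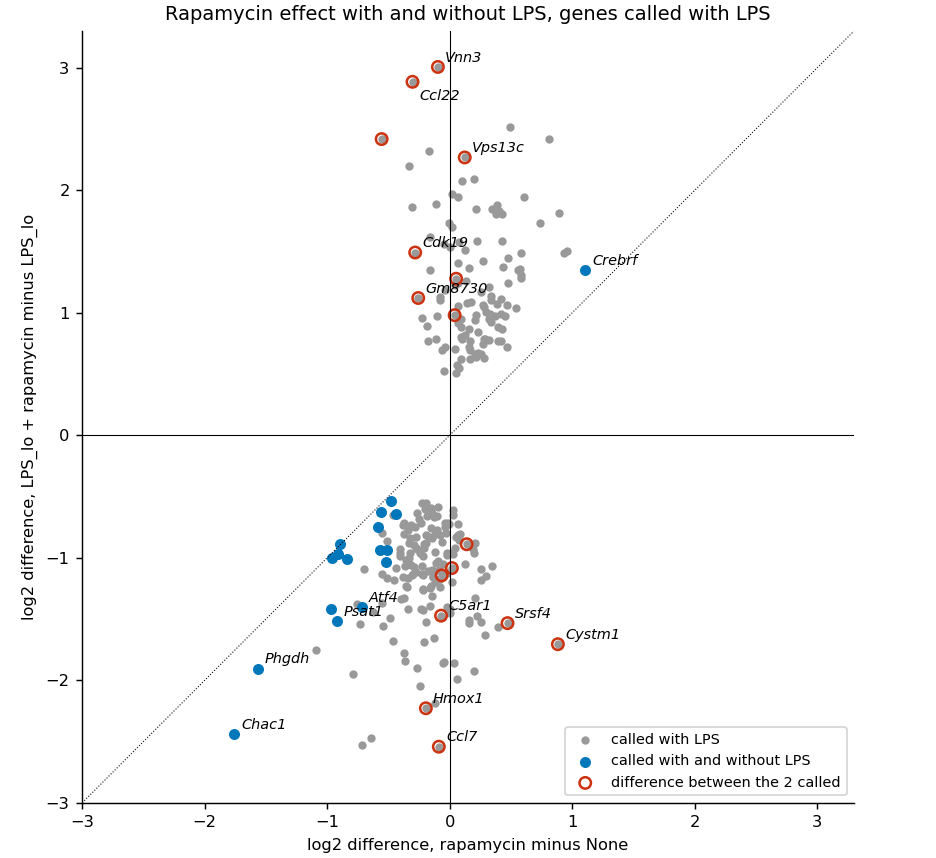
Log2 difference made by rapamycin in LPS (vertical axis, LPS_lo + rapamycin minus LPS_lo) against the difference made by rapamycin alone (horizontal axis, rapamycin minus None), 1 dot for each of the 294 genes called in LPS; the dotted line marks equal differences. Of the 294 dots 235 lie in the 2 quadrants of equal sign, 17 were called in both (blue), and circled genes such as Vnn3, Ccl22, Hmox1 and Ccl7 lie near 0 on the horizontal axis.

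The other drug added to the same LPS dose was resveratrol, a plant polyphenol, and the direct comparison of both combinations called 1130 genes (9.96%), 296 higher (2.61%) and 834 lower (7.35%) with rapamycin. The split was 648 higher and 348 lower when the medians of the cultures were made equal, and without plate in the model 576 genes passed. Both groups were on the same 2 plates, but all LPS_lo + resveratrol cultures and 2 of the LPS_lo + rapamycin cultures were in the second library pool of their plate. Vnn3 and Ccl22 were higher with rapamycin than with resveratrol (3.07 ± 0.30 and 3.66 ± 0.43, adjusted p = 6.72e-12 and 1.07e-09), and Hmox1 was lower (-1.81 ± 0.21, adjusted p = 7.91e-10). Psat1 and Hspa5 were lower with rapamycin than with resveratrol (-1.34 ± 0.23 and -1.17 ± 0.19, adjusted p = 2.66e-05 and 9.54e-06), and for Rps7 the difference did not pass (0.36 ± 0.25, adjusted p = 0.402). Il1rn, which rapamycin lowered against LPS_lo, was higher with rapamycin than with resveratrol (2.45 ± 0.25, adjusted p = 1.43e-11), as were Ccl5 and Ccl2 (1.87 ± 0.21 and 1.94 ± 0.43, adjusted p = 7.92e-10 and 0.00121).

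The authors grouped genes into modules of correlated expression on cultures of this series, so the modules are not independent of these data, although they are used here only as lists. The level of a module is the mean of log2(CPM + 1) over its tested genes. In each of the BR, CY and YE modules, most of which LPS raised, the level with and without rapamycin differed by less than 1 SD over the LPS_lo cultures. BR_turquoise (147 genes tested, 139 raised by LPS) was at 7.04 ± 0.26 in LPS_lo, 6.85 ± 0.18 in LPS_lo + rapamycin and 4.64 ± 0.33 in None (SD, n = 7, 7 and 40), and 1 of its genes fell with rapamycin. CY_turquoise (38 genes, all raised by LPS) was at 7.60 ± 0.24 and 7.59 ± 0.38, and YE_turquoise (104 genes, 79 raised) at 6.65 ± 0.31 and 6.65 ± 0.23. The highest module median with rapamycin was that of TQ_green, at 0.48, a module of which LPS had lowered 42 of 49 genes; its level was 4.19 ± 0.42 in LPS_lo, 4.62 ± 0.44 with rapamycin and 6.03 ± 0.35 in None, and 1 of its genes passed. TQ_turquoise (143 genes, 131 lowered by LPS) had 4 genes higher and 6 lower.

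**Figure D5:**
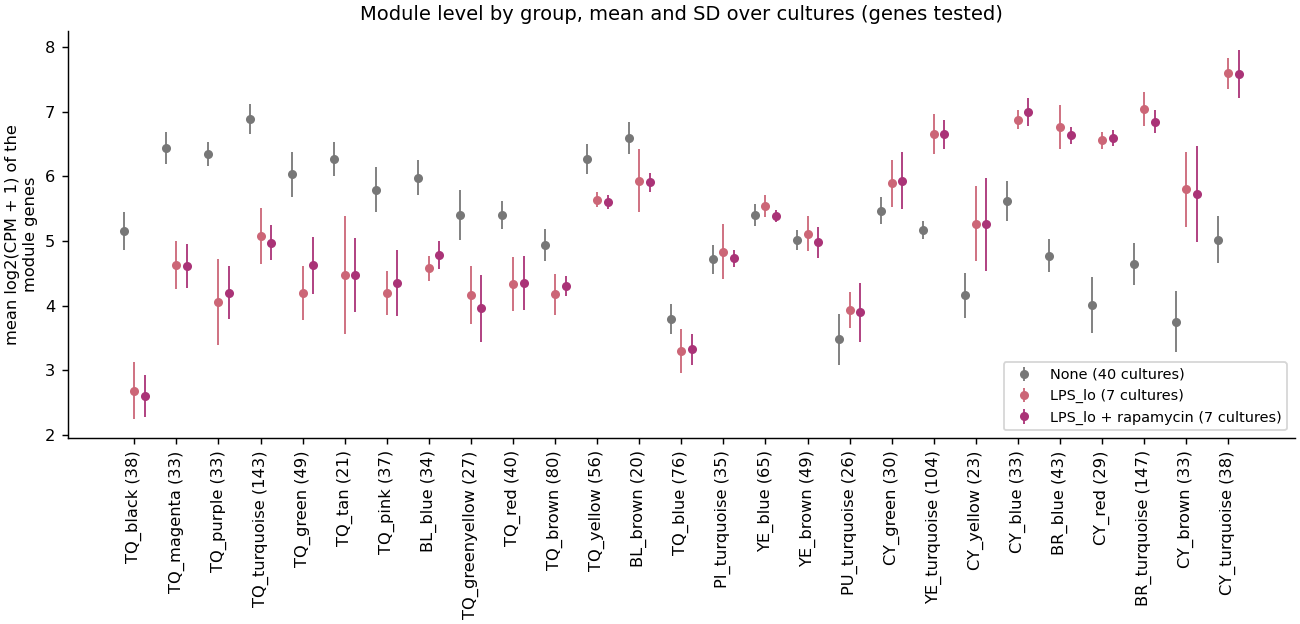
Mean log2(CPM + 1) over the tested genes of each module with at least 20 tested genes, in None, LPS_lo and LPS_lo + rapamycin; points are means and bars the SD over cultures, and modules are ordered by the LPS difference. The LPS_lo and LPS_lo + rapamycin bars overlap in BR_turquoise, CY_turquoise and YE_turquoise, while None stands apart.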

How the data were processed

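RNA of single microglia cultures was sequenced at the 3′ end. Per the labels, reads were quantified with Salmon 0.7.1; the study's methods name Ensembl 81 transcripts (GRCm38), while the labels list another build. The values deposited by the authors are CPM per gene (the study's methods call them TPM), each library summing to at most 999835; 73.1 to 86.1% of low values were within 0.1 of a whole read, so counts were not recovered and no count test was run. Genes over 5 CPM in at least 7 of the 73 cultures used (11345 of 45581) were tested as log2(CPM + 1) with limma 3.58.1 (R 4.3.3, trend on mean expression, plate as covariate, 5 groups in 1 fit, 63 residual degrees of freedom). The fit was also run on simulated data drawn as normal noise from the same model. That run cannot show how well the model suits these cultures. Genes were called at a Benjamini-Hochberg adjusted p under 0.05, two-sided, with no minimum fold. Depth was 1.09 to 18.9 M mapped reads; differences of genes with few counts are least precise. The other 711 culture columns and the in vivo table were not used here. The comparison, gene lists and tests were chosen with earlier results of these data known. Named genes were the 15 largest rises and falls among called genes with a mean of at least 10 CPM and 1 sign on both plates, up to 6 called members per list, and 5 to 10 per other comparison; 25 date-like gene names were left out, and 1 gene that the rule names is not reported here. Positions are from GRCm38 annotation and promoters from RefSeq. Alternatives changed the plate term, scaling, pseudocount, filter and cultures.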

Additional observations from a re-analysis of the deposited data

Results flagged for a closer look

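In groups of 7 cultures, 3 values among 60 gene and group pairs checked lay far from the rest of their group, by a gap to the nearest culture over 0.568 of the range of the group; chance gives about 1 in 20, or 3 here. They were Bckdha at 0 CPM in LPS_lo replicate 7, Ccl2 at 92.3 CPM in LPS_lo replicate 4 and Ddx51 at 2.76 CPM in LPS_lo replicate 6.

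For 11 named genes the rapamycin difference in LPS and the difference without LPS were unequal by the interaction test. The difference in LPS minus that without it was 3.10 for Vnn3, 3.19 for Ccl22, 2.15 for Vps13c, 1.77 for Cdk19, 0.94 for Rps25 and 1.38 for Gm8730. It was -2.03 for Hmox1, -2.45 for Ccl7, -1.4 for C5ar1, -2.01 for Srsf4 and -2.59 for Cystm1.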

How the results depend on the processing

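No tested alternative turned the direction of a named gene of LPS_lo + rapamycin against LPS_lo. These genes were named because they were called, the ranked ones also for 1 sign on both plates. The outcome was therefore largely fixed by the naming rule. LPS_lo + rapamycin against LPS_lo called 294 genes. Its count was 65 without plate in the model, 194 on only the plates that hold both LPS groups, 169 with a log2 difference of at least 1, and 164 without the 2 cultures highest in mitochondrial transcripts, a setting chosen after seeing the data. With only the groups of the comparison the count was 209, and 153 of these were among the 294. The other calls among the 294 were thus not made without the other groups in the fit. The count was 0 by the exact rank-sum test, where 959 genes had an unadjusted p under 0.05 and the smallest adjusted p was 0.112. With 7 and 7 cultures this test cannot give a p under 0.000583, and it leaves out plate. Only the 59 genes without overlap reach that p, too few to pass after adjustment over 11345 genes. The 0 therefore cannot tell whether single calls hold. Leave-one-out counts ran from 204 to 293. Of 75 named genes, 41 passed in every leave-one-out fit, 24 without plate, 51 with only the groups of the comparison, 75 with library pool in place of plate and 63 with the medians of the cultures made equal. LPS_lo against None called 2540 with a log2 difference of at least 1 (3872 without that limit). Rapamycin alone called 107 with library pool in place of plate, 108 with only the groups of the comparison and 22 with a log2 difference of at least 1. The interaction called 3 without plate, 40 with library pool, 29 with only its groups, 8 on only the plates with both LPS groups, 9 with no filter, 33 with equal medians and 9 without the 2 cultures highest in mitochondrial transcripts, and from 11 to 27 in leave-one-out fits. Rapamycin against resveratrol in LPS called 576 without plate, 543 with only its groups, 685 with a log2 difference of at least 1 and 159 by the exact rank-sum test. The cause of these changes was not tested. No paired analysis was possible because the labels give no replicate numbers. With 7 cultures a group, and depths down to 2.12 M mapped reads in them, differences of genes near 5 CPM were the least precise.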

Other observations

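Rapamycin without LPS moved some genes that it did not move past the threshold in LPS. Mthfd2, a mitochondrial enzyme of one-carbon metabolism, was at 41.1 ± 23 CPM in None and 12.2 ± 11.2 CPM with rapamycin (SD, n = 40 and 11), a log2 difference of -1.84 ± 0.21 (adjusted p = 1.18e-08), beside -0.88 ± 0.32 in LPS (adjusted p = 0.125). Fbxo32, a ubiquitin ligase subunit known from muscle wasting, rose from 15 ± 9.5 to 57.0 ± 14.7 CPM (1.90 ± 0.32, adjusted p = 0.000119), beside 0.75 ± 0.47 in LPS (adjusted p = 0.483), where LPS alone had lowered it to 0 to 8.1 CPM. Tfrc, the transferrin receptor, fell by 1.27 ± 0.26 without LPS (adjusted p = 0.00311), beside -0.01 ± 0.38 in LPS (adjusted p = 0.997). The interaction did not pass for any of the 3 (adjusted p = 0.396, 0.534 and 0.316), so their differences with and without LPS are not shown to be unequal.

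The 7 genes whose rapamycin difference in LPS differed between the plates included Serping1, the inhibitor of complement C1. It was at 15.6 to 17.7 CPM in LPS_lo and 2.80 to 29.2 CPM with rapamycin on the first plate, and at 0.264 to 19.7 CPM and 60.9 to 94.3 CPM on the second (4.64, second plate minus first, adjusted p = 0.000366). Plate and cell lot changed together.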
